A study of Homo sapiens with 18 samples.

Results

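The RAB GTPase genes are described here as they stood in RNA-seq and m6A immunoprecipitation libraries of a colorectal cancer cell line with 2 forms of METTL3. Members were the rows of the gene count table whose symbol is RAB followed by a number, with or without a closing letter and digit, and the m6A peaks that overlap their exons on the same strand. The rule took 71 of 61267 rows, 63 listed as protein-coding and 8 pseudogenes (RAB1C, RAB42P1, RAB43P1 and RAB28P1 to RAB28P5), and 129 of 39708 peaks. No measured value entered the rule. The cells were LoVo, an established colorectal cancer line, carrying either METTL3 WT or METTL3 K513R, a form in which a lysine is replaced by arginine. METTL3 catalyses the writing of m6A, a methyl group on adenosines of RNA, and the study asked what methylation of the METTL3 protein at this lysine does. Each genotype gave 3 libraries of each of 3 kinds, 18 in all: RNA-seq of total RNA depleted of rRNA, MeRIP input (fragmented poly(A) RNA) and MeRIP IP (the same kind of fragments pulled down with an antibody to m6A). No treatment and no time point is given, all libraries come from the same line, and how the K513R cells were made, as 1 clone or as a pool, is not given in the sources used here. Nothing says that replicates were separate cultures, so p-values here reflect only library-to-library spread, which may be technical.

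RAB proteins are small GTPases that mark membranes and direct vesicle traffic. They switch between a GDP-bound and a GTP-bound state: exchange factors load GTP, GTPase activating proteins promote its hydrolysis, and GTP-bound RABs recruit effectors such as tethers and motor adaptors. Geranylgeranyl lipids added by the RAB prenylation machinery anchor them in membranes, and GDP dissociation inhibitors (GDI) extract and recycle them. In epithelial cells such as those of the colon, RAB8, RAB10, RAB11 and RAB13 are known for polarised traffic to the plasma membrane and for junctions.

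The sequences before the start sites of 4 members that moved in opposite directions are shown so that readers can compare them. They are the 250 bases before the RefSeq start (GRCh38.p14), taken for the 2 largest falls and the 2 largest rises past the test among genes averaging 1 CPM or more (CPM, counts scaled to the size of the library) whose window touches no exon of the gene in the count table. Capitals mark matches, on either strand, to the GC box GGGCGG and to the ETS core CCGGAAG. The windows are chr2:26033834-26034083 (plus strand) for RAB10, chr19:16111639-16111888 (plus strand) for RAB8A, chr18:54717607-54717856 (plus strand) for RAB27B and chrX:13688878-13689127 (plus strand) for RAB9A. RAB10 and RAB8A fell and RAB27B and RAB9A rose.
RAB10: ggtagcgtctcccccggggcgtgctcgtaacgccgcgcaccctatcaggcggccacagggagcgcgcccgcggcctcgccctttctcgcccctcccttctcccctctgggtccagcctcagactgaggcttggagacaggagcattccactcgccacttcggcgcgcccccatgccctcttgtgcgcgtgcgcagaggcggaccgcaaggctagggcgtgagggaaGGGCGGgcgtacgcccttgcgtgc
RAB8A: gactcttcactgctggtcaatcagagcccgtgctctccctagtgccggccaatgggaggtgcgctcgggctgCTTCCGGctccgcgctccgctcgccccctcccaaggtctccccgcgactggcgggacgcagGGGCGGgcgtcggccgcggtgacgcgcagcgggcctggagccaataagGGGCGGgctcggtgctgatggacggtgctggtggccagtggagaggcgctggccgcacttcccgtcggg
RAB27B: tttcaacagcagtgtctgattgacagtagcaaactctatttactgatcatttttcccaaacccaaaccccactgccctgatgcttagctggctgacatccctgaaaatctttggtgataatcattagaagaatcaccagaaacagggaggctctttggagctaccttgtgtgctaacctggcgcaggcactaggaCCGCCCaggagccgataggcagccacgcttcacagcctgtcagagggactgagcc
RAB9A: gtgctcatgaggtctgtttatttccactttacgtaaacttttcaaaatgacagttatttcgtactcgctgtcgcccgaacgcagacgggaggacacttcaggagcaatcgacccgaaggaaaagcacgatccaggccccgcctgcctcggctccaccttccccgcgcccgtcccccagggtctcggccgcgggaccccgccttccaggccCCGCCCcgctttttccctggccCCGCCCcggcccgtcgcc

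All 4 windows hold at least 1 GC box, and their GC content is 71.2%, 72.4%, 50.4% and 63.6% in the order printed. Of the 50 coding members with a RefSeq promoter, 39 (78%) hold a GC box in this window against 42.3% of 27305 promoters of the table. The median GC content was 64.8% for the 50 members and 58% for all promoters. The GC box stood in 21 of 25 members that were lower in K513R RNA-seq, 7 of 11 that were higher and 10 of 12 that did not pass. The ETS core was in 7 of 50 members (14%; 8.82% of all promoters). The E2F core GCGGGAA, searched because the series names E2F4, was in 3 of 50 (6%; 5.59% of all promoters). Matches describe these letters only.

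RNA-seq libraries held 47105235 to 53795212 counts, and MeRIP libraries 2625446 to 12491969 counts in peaks. The count table's RAB rows took 0.171% ± 0.0120 (SD, n = 3) of the WT counts and 0.0904% ± 0.00604 (SD, n = 3) of the K513R counts. Library make-up moved with genotype as well: rows named as 7SL RNA took 2.30% in WT and 17.9% in K513R, mitochondrial genes 4.16% and 0.281%, and 404 olfactory receptor genes, which should be silent here, gave 0.0486 and 0.160 CPM per kilobase. Of 12 epithelial markers 7 reached 1 CPM in both genotypes and CDX1 was at 0; their summed level was 10655 to 15410 CPM in WT and 2486 to 2679 in K513R. The sums were 31.0 to 42.2 and 38.2 to 46.0 CPM for 6 fibroblast markers, 1.10 to 1.49 and 3.69 to 4.07 for 4 endothelial markers and 20.0 to 24.8 and 46.8 to 54.1 for 7 blood markers. The part of these differences in the RAB results was not tested, and fewer cells of a type cannot be told apart from less RNA per cell.

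Transcripts of RAB10, RAB11A, RAB2A, RAB8A and RAB7A were 5.27- to 10.3-fold lower in K513R RNA-seq, while a smaller set, RAB34 and RAB41 among it, was higher. Of the 61 members that passed the filter on low counts, 16 were higher, 30 lower and 15 did not pass edgeR's quasi-likelihood test at a Benjamini-Hochberg adjusted p of 0.05. The share called, 75.4%, lies near the background, since 78.3% of the 30377 genes tested were called, 41.5% higher and 36.9% lower. The change was at least 2-fold for 11 of the 16 and 19 of the 30, and the 3 libraries of one genotype lay wholly above those of the other in 15 of the 16 and 28 of the 30. The median log2 fold change of the 61 was -0.25, beside 0.13 for all genes tested. With upper-quartile scaling the split was 22 higher and 24 lower and the median 0.01, while the median of all genes moved to 0.39, so small changes of single members depend on scaling. The lower call was then lost by RAB21 (0.01), RAB2B (-0.13), RAB36 (-0.36), RAB40B (-0.05), RAB40C (-0.37) and RAB3A (-0.39), and a higher call was gained by 6 members, RAB5B (0.30), RAB22A, RAB29, RAB33B, RAB4B and RAB43P1. Leaving out 7SL, 7SK and mitochondrial rows and scaling by library size alone, 2 choices changed together, moved the median of all genes to 0.33 and that of the members to -0.07.

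**Figure D1:**
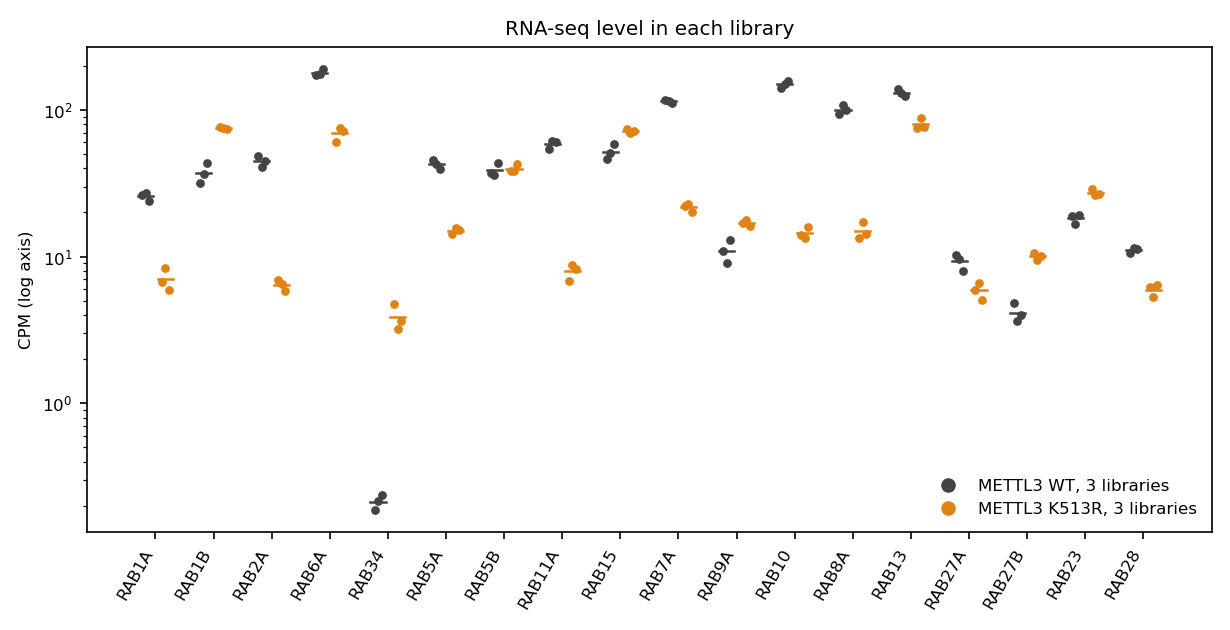
RNA-seq level in CPM on a log axis of 18 RAB genes in each of the 3 METTL3 WT (grey) and 3 METTL3 K513R (orange) libraries; points are libraries and short lines are means. RAB10 sits between 141 and 157 CPM in WT and between 13.5 and 16 in K513R, whereas RAB1B and RAB34 are higher in all 3 K513R libraries.

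Members of the endoplasmic reticulum and Golgi group split, with 6 higher, 8 lower and 3 not past among 17 tested (median -0.26). RAB2A, which acts between the endoplasmic reticulum and the Golgi (chr8:60516936-60623644), measured 48.7, 40.9 and 45.1 CPM in WT and 6.88, 6.51 and 5.83 in K513R, which is -2.81 ± 0.12 on the log2 scale (fold change ± SE; edgeR adjusted p = 1.0e-12). No K513R library came near a WT library. RAB6A, the Golgi RAB of retrograde and secretory carriers (chr11:73675638-73761137), had the highest mean CPM of the group, at 173, 175 and 190 in WT and 60.8, 75.5 and 71.4 in K513R (log2 fold change -1.37 ± 0.11, edgeR adjusted p = 3.5e-09). Its close relative RAB6B (log2 fold change -1.70) averaged 27.3 ± 3.05 CPM in WT and 8.40 ± 0.525 in K513R (SD, n = 3). RAB18, of lipid droplets and the endoplasmic reticulum, went from 51.9 ± 6.94 to 24.3 ± 3.43 CPM.

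The RAB1 pair moved in opposite directions. RAB1A (chr2:65070696-65130331) measured 26.2, 27.3 and 24.0 CPM in WT and 6.67, 8.37 and 5.95 in K513R (log2 fold change -1.89 ± 0.13). RAB1B (chr11:66268590-66277492) measured 31.6, 36.8 and 43.5 CPM in WT and 76.9, 75.4 and 73.5 in K513R (log2 fold change 1.01 ± 0.12, edgeR adjusted p = 3.7e-07). Both serve traffic from the endoplasmic reticulum to the Golgi. Of the exon length of RAB1B 43.8% is shared with other genes, and of RAB1A 22.9%, in both cases mainly with a gene on the other strand; how reads over shared exons were assigned, and whether strand was used, is not given in the sources used here, so values of genes with shared exons are uncertain.

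RAB34, a RAB of the Golgi and of ciliary membranes (chr17:28714281-28718429), was very low in WT, at 0.187, 0.216 and 0.237 CPM, and stood at 4.71, 3.21 and 3.66 in K513R. This was the largest rise of the family (log2 fold change 4.16 ± 0.28, edgeR adjusted p = 3.0e-10), and it rests on 32 counts in WT and 562 in K513R. RAB41 rose from 0.692 ± 0.173 to 4.27 ± 0.599 CPM and RAB43 from 7.07 ± 0.995 to 16.5 ± 1.44, but RAB41 shares 49.3% of its exons with PDZD11 on the opposite strand and RAB43 79.3% with the read-through gene ISY1-RAB43. RAB33A rose by 2.80 on the log2 scale from only 6 counts in WT to 43 in K513R. RAB36 (-0.62) and RAB2B (-0.39) were lower by less. RAB30 (0.67, higher) lost its call without WT replicate 2 (0.56), WT replicate 3 (0.49) or K513R replicate 3 (0.37), and RAB6C (-1.42, 26.1% of its exons shared with RAB6C-AS1) lost it without WT replicate 2 (-0.86). RAB6D, RAB19 and RAB33B did not pass, with log2 fold changes between -0.26 and 0.18.

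Early and recycling endosome RABs were mostly lower: 10 of 16 fell, 1 rose and 5 did not pass (median -1.0; over all genes tested 36.9% were lower and 41.5% higher). No test compares the group with other genes, and 1 of the 10 is RAB21, whose call was lost in most alternatives. RAB11A (chr15:65726054-65891989), the main RAB of recycling endosomes, measured 53.8, 61.3 and 60.1 CPM in WT and 6.80, 8.76 and 8.29 in K513R. Its log2 fold change was -2.88 ± 0.12 (edgeR adjusted p = 1.0e-12), a 7.34-fold difference. RAB11B fell alongside it, from 43.5 ± 5.72 to 9.64 ± 0.821 CPM (log2 fold change -2.18), while RAB25, the epithelial RAB11 relative, did not pass.

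RAB14, of endosome to Golgi traffic, gave 35.0, 40.4 and 53.2 CPM in WT and 7.33, 7.55 and 9.51 in K513R (log2 fold change -2.40 ± 0.15). RAB35, a RAB of fast recycling, fell by 1.75 on the log2 scale. Among the RAB5 genes, which organise early endosomes, RAB5A measured 45.8, 42.5 and 39.7 CPM in WT and 14.2, 15.7 and 15.2 in K513R (log2 fold change -1.51 ± 0.11, edgeR adjusted p = 5.6e-10). RAB5C fell by 1.16 on the log2 scale, with 30.4% of its exons shared with other genes. RAB5B overlapped between genotypes, at 37.0, 36.1 and 43.4 CPM in WT and 38.5, 38.5 and 42.4 in K513R (log2 fold change 0.04 ± 0.11, edgeR adjusted p = 0.77).

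RAB15, a RAB of early and recycling endosomes (chr14:64945814-64973226), was the 1 member of this group to rise. It gave 46.5, 50.9 and 58.7 CPM in WT and 73.9, 69.3 and 71.4 in K513R (log2 fold change 0.46 ± 0.11, edgeR adjusted p = 0.00089). RAB20 (-1.22), RAB31 (-1.21) and RAB17 (-0.84) were lower in all K513R libraries than in any WT library. RAB21 (-0.25) passed only narrowly, with overlapping libraries, and lost its call without WT replicate 1 (-0.25) or 2 (-0.26) and without each K513R replicate (-0.18 to -0.29). The members RAB25, RAB4A, RAB4B and RAB22A did not pass and lay between -0.13 and 0.21.

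In the late endosome and lysosome group 3 of 7 tested fell, 2 rose and 2 did not pass (median 0.23). RAB7A, the RAB of late endosomes and lysosome fusion (chr3:128693669-128825942), measured 117, 115 and 111 CPM in WT and 22, 22.7 and 20.3 in K513R, or -2.40 ± 0.11 on the log2 scale (edgeR adjusted p = 1.5e-12). The spread within a genotype was small, 3.33 CPM (SD, n = 3) in WT and 1.27 in K513R. RAB12 (-1.53) and RAB32 (-0.85), a RAB of lysosome-related organelles and mitochondria, were lower too. RAB9A, of transport from late endosomes to the trans-Golgi (chrX:13689128-13710504), rose from 11, 9.01 and 12.9 CPM in WT to 17.1, 17.7 and 16.2 in K513R (log2 fold change 0.63 ± 0.13, edgeR adjusted p = 0.00031). RAB24 rose by a log2 fold change of 0.57 with 44.8% of its exons shared with MXD3. The remaining RAB29 and RAB9B did not pass, with values from 0.23 to 0.32.

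Secretory RABs included the largest fall of the family. RAB10 (chr2:26034084-26137454), which directs vesicles to the plasma membrane, measured 141, 150 and 157 CPM in WT and 14.1, 13.5 and 16 in K513R. Its log2 fold change was -3.36 ± 0.12 (edgeR adjusted p = 1.4e-13), a 10.3-fold difference. RAB8A, the close relative that acts in exocytosis and cilia (chr19:16111889-16134234), measured 93.1, 109 and 99.98 CPM in WT and 13.4, 17.2 and 14.3 in K513R (log2 fold change -2.75 ± 0.12), with 43.9% of its exons shared, mainly with a gene on the other strand. RAB8B did not pass, at 17.3, 16.1 and 15.9 CPM in WT and 15.0, 17.3 and 15.4 in K513R (log2 fold change -0.05 ± 0.11).

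RAB13, a RAB of tight junctions (chr1:153981617-153986358), had the highest mean CPM of the secretory group, at 138, 130 and 125 in WT and 75.5, 87.4 and 76.2 in K513R (log2 fold change -0.71 ± 0.11, edgeR adjusted p = 7.6e-06). It shares 24.8% of its exons with another gene on the same strand, so its values are uncertain. The RAB27 pair, which docks secretory granules and multivesicular bodies, moved in opposite directions. RAB27A measured 10.3, 9.60 and 7.96 CPM in WT and 5.95, 6.62 and 5.08 in K513R (log2 fold change -0.66 ± 0.15). RAB27B measured 4.80, 3.65 and 4.02 CPM in WT and 10.6, 9.43 and 10.1 in K513R (log2 fold change 1.27 ± 0.15, edgeR adjusted p = 3.7e-07). RAB26, of secretory granules, rose from 11.3 ± 1.75 to 23.4 ± 1.2 CPM, and RAB37 from 0.228 ± 0.0373 to 1.2 ± 0.344. RAB37 stood at 0.0449 and 0.237 CPM per kilobase, beside 0.0486 and 0.160 for olfactory receptor genes, and shares 21.6% of its exons with other genes. On the same scale RAB33A (0.0424 and 0.310), RAB44 (0.0239 and 0.337) and RAB3C (0.0202 and 0.050) were also low in both genotypes, and the part of such background in their rises was not tested. RAB3A (-0.66) was lower but lost its call without WT replicate 3 (-0.57) or K513R replicate 1 (-0.59) or 3 (-0.50). RAB3C (1.27, on 30 counts in WT and 70 in K513R) lost it without WT replicate 2 (0.94) or 3 (1.10) or K513R replicate 1 (1.13). In this group 4 of 12 rose, 5 fell, and RAB8B, RAB3B and RAB3D did not pass, with values from -0.20 to -0.05 (median of the group -0.14).

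All 7 members of the ciliary, ubiquitin ligase and atypical group passed, 3 higher and 4 lower (median -0.31; 78.3% of all genes were called), but RAB40B and RAB40C did not with upper-quartile factors. RAB23, a negative regulator of Hedgehog signalling linked to cilia (chr6:57186992-57222307), measured 18.9, 16.6 and 19.3 CPM in WT and 28.7, 26.5 and 26.8 in K513R (log2 fold change 0.58 ± 0.11), with 57.8% of its exons shared with BAG2 on the opposite strand. RAB42 (chr1:28592200-28595449) rose from 1.61, 1.62 and 1.39 to 4.54, 4.77 and 4.33 CPM (log2 fold change 1.56 ± 0.18). RAB28, a ciliary RAB (chr4:13361354-13484365), fell from 10.6, 11.4 and 11.2 to 6.2, 5.27 and 6.42 CPM (log2 fold change -0.89 ± 0.13). RAB40A (-1.26), RAB40C (-0.63) and RAB40B (-0.31), which carry a SOCS box and join ubiquitin ligases, were all lower. RAB44, a large atypical RAB, had 16 counts in WT and 209 in K513R (log2 fold change 3.73 ± 0.53; 4.44 without WT replicate 1, 3.15 without WT replicate 2, which had no count).

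**Figure D2:**
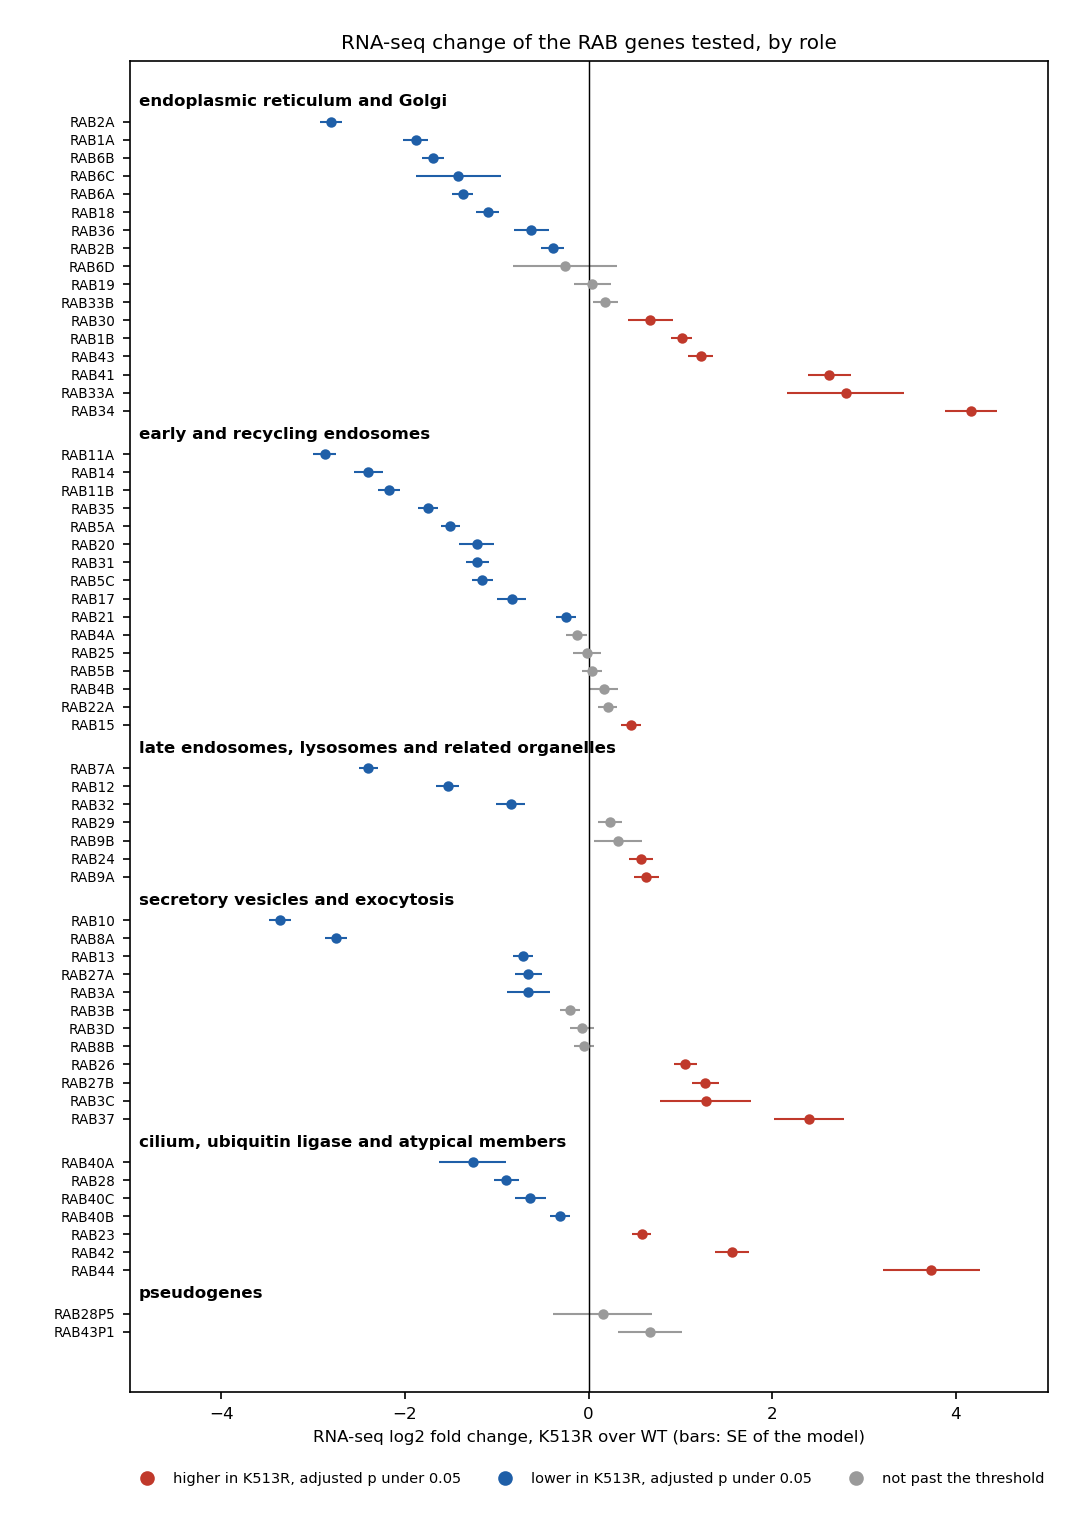
RNA-seq log2 fold change, K513R over WT, of the 61 RAB genes tested, grouped by role; points are model estimates, bars their SE and colours the call at an adjusted p of 0.05. Early and recycling endosome members lie mostly to the left, 10 of 16 being lower, and each of the 5 role groups holds members on both sides of 0, while the 2 tested pseudogenes lie above it.

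The 10 members that did not pass the filter were RAB39A, RAB39B, RAB7B, RAB38 and the pseudogenes RAB42P1, RAB1C and RAB28P1 to RAB28P4. RAB38 had 1 count in WT and 27 in K513R, and RAB28P1 had none in any library. The pseudogenes RAB28P5 and RAB43P1 were tested and did not pass, at 0.15 and 0.67. At least 10% of the exon length was shared with another gene in 16 members. Without them 10 were higher and 23 lower of 45 tested.

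Compared per kilobase of exon, the order of the family differed between genotypes. In WT the highest levels were RAB13 at 47.5 ± 2.46 CPM per kilobase (SD, n = 3), RAB10 at 40.9 ± 2.21, RAB6A at 36.6 ± 1.86 and RAB5C at 30.6 ± 3.08. In K513R they were RAB1B at 38.6 ± 0.866, RAB13 at 29.0 ± 2.42, RAB15 at 14.5 ± 0.464, RAB6A at 14.1 ± 1.55 and RAB5C at 13.7 ± 1.33. The last 3 do not differ beyond their spread, and RAB10 stood at 3.97 in K513R. RAB13, RAB1B and RAB5C share 24.8%, 43.8% and 30.4% of their exons with other genes, so their place in this order is uncertain.

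The direction went with the level. Among members with a mean of 20 CPM or more, 3 were higher and 13 lower of 21 (median -1.10). Over all genes at that level 2258 were higher and 4004 lower of 7256 (median -0.44). At 5 to 20 CPM 5 were higher and 12 lower of 20 (median -0.51), and over all genes 2326 and 2869 of 6256 (median -0.16). Under 5 CPM 8 were higher and 5 lower of 20 tested (median 0.25), and over all genes 8008 and 4335 of 16865 (median 0.63). Over the 61 members Spearman's rho between mean log2 CPM and log2 fold change was -0.46, against -0.26 over all genes tested; the values share libraries and are given as a description.

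Genes that act on RABs moved both ways, and the lipid and recycling machinery was mostly higher. Of 159 regulators and effectors tested, 48 were higher and 87 lower, again beside 78.3% called over all genes. Of 12 prenylation and GDI genes 9 were higher and 2 lower (median 0.86). ZMPSTE24, a protease listed with the enzymes that process prenylated proteins, measured 20.2, 22.5 and 18.1 CPM in WT and 70.9, 77.2 and 70.3 in K513R (log2 fold change 1.84 ± 0.11). RABGGTB, the catalytic subunit of the enzyme that prenylates RABs, rose by a log2 fold change of 1.61 and its partner RABGGTA by 0.89. The escort proteins CHM and CHML, which present RABs to that enzyme, parted, at -0.99 and 0.84.

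GDI2, which extracts RABs from membranes, measured 238, 225 and 236 CPM in WT and 57.3, 48.9 and 57.4 in K513R (log2 fold change -2.10 ± 0.11, edgeR adjusted p = 1.2e-11). No K513R library came near a WT library for this gene. RABGGTA, RABGGTB, CHM and CHML were named after their values were seen.

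Exchange factors counted 15 higher and 27 lower of 47 (median -0.37), with TRAPPC4, a TRAPP subunit, at 2.10 and SBF2, a DENN-domain protein, at -2.52. GTPase activating proteins counted 9 higher and 21 lower of 36 (median -0.50), with TBC1D10C at 2.04 and TBC1D30 at -2.22. Effectors and tethers counted 15 higher and 37 lower of 64 (median -0.60), with UNC13D, which primes granules together with RAB27A, at 2.08 and RPH3AL, a RAB3A and RAB27A effector, at -3.78. RPH3AL measured 4.80, 5.62 and 6.15 CPM in WT and 0.552, 0.499 and 0.157 in K513R. In the inputs described below, among genes printed here and tested there, SBF2 gave a log2 fold change of 0.03, TBC1D30 0.68 and GDI2 -1.42, the last 2 past the threshold. RABGGTB gave -0.28, ZMPSTE24 0.42 and CHML 0.04 in input, none past it. The genes printed for each list are its largest rise and fall, taken where the mean reached 1 CPM, and TRAPPC4 shares 19.5% and TBC1D30 36.7% of its exons with other genes.

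**Figure D3:**
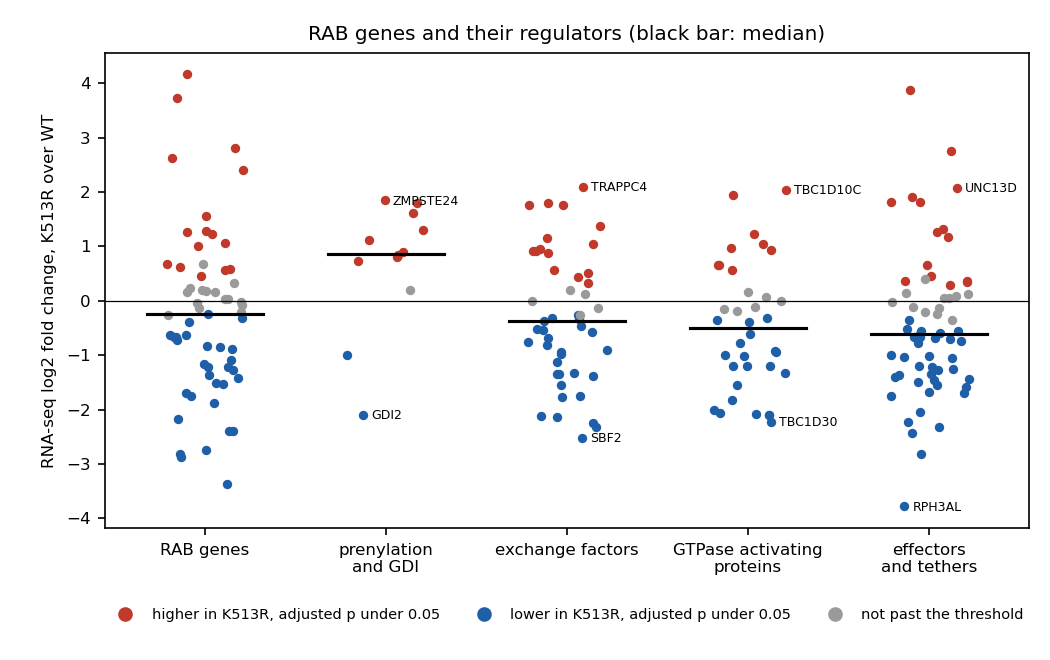
RNA-seq log2 fold change, K513R over WT, of the RAB genes and of 4 lists of regulators and effectors; points are genes coloured by call, spread sideways at random, and black bars are medians. The prenylation and GDI list has its median at 0.86, whereas the medians of the other lists lie between -0.60 and -0.25.

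The MeRIP inputs give another view of RNA level in poly(A) RNA, summed over the peaks of each gene. Most RAB genes that were lower in RNA-seq did not pass there, and neither did 6165 of the 8401 genes tested. Of 27 RAB genes tested, 5 were higher and 2 lower (median 0.06; 25.9% called, beside 26.6% of the 8401 genes tested), and with library size as the only scaling 5 were higher and 1 lower. Over all genes that scaling gave 1570 higher and 766 lower. RAB1C is left out, because its value came from a peak far longer than the pseudogene.

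RAB27B had the largest input change. Its level was 16.4, 15.1 and 18.2 CPM in the WT inputs and 126, 149 and 126 in the K513R inputs (log2 fold change 3.00 ± 0.14, edgeR adjusted p = 2.2e-10). Every K513R input was far above every WT input, and the call held in all alternatives run, the only one of the 7 to do so. RAB9A was higher too, at 35.0, 30.5 and 28.0 CPM in WT and 44.4, 60.9 and 59.3 in K513R (log2 fold change 0.80 ± 0.16). With peaks of at most 1000 bases only, an alternative added after seeing the data, RAB9A was at 0.65 and did not pass. The other calls were RAB20 (0.75), RAB3D (0.73), RAB32 (0.54), RAB7A (-0.66) and RAB13 (-0.36). The RAB32 value comes from a single long peak that lies mostly outside the exons of the gene. Without WT replicate 2 or K513R replicate 2 only 3 of the 27 were called (16.5% and 18.4% over all genes). RAB20 lost its call without WT replicate 1 or 2 or K513R replicate 2 or 3 (0.61 to 0.77), RAB32 without any WT replicate or K513R replicate 2 (0.35 to 0.58), RAB3D and RAB7A without WT replicate 2 (0.61 and -0.60) or K513R replicate 2 (0.57 and -0.56), and RAB13 without WT replicate 3 (-0.29) or K513R replicate 3 (-0.26).

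RAB10 shows the contrast between the library types. Its inputs gave 357, 363 and 389 CPM in WT and 334, 319 and 344 in K513R, a log2 fold change of -0.15 ± 0.09 (edgeR adjusted p = 0.23), where RNA-seq gave -3.36. RAB8A gave -0.41 and RAB11A -0.48 in input, neither past the threshold; without K513R replicate 1 both passed, at -0.77 and -1.16. RAB1A gave -0.47 and RAB1B -0.40, also not past. The only RAB11A peaks are long spans, the longer at chr15:65859732-65869556, and a further RAB10 peak spans chr2:26098710-26127262. Most of these spans lies outside the merged exons of the gene, and the part of this in the input values was not tested.

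The difference between the 2 changes was tested in a joint edgeR model with an assay by genotype term. Of 27 RAB genes, 15 passed, 11 with the input change above the RNA-seq change and 4 below, where 63.7% of 8325 genes passed (32.7% above, 31% below). That model is scaled over genes tested in both assays, whose median RNA-seq change was -0.47. Its differences are therefore relative to such genes and lie 0.48 (median over genes) under plain subtraction. The difference was 2.72 ± 0.15 (SE) for RAB10 (edgeR adjusted p = 6.0e-12). It was 1.93 ± 0.33 for RAB11A (1.14 without replicate 1), 1.86 ± 0.24 for RAB8A, 1.48 ± 0.30 for RAB20, 1.33 ± 0.19 for RAB35, 1.25 ± 0.21 for RAB7A and 1.25 ± 0.20 for RAB27B. RAB1A (0.94), RAB32 (0.90), RAB5A (0.86) and RAB18 (0.50) followed. RAB1B (-1.89 ± 0.39), RAB25 (-1.22), RAB15 (-0.99) and RAB22A (-0.73) stood below. Calls were lost without replicate 1 by RAB1A (0.36), RAB5A (0.37), RAB18 (0.46) and RAB22A (-0.56), without replicate 2 by RAB18 (0.44) and RAB32 (0.64), and without replicate 3 by RAB22A (-0.75).

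Among the 15 genes lower in RNA-seq and tested in both, input did not pass in 11, was lower in 2 (RAB7A and RAB13) and higher in 2 (RAB20 and RAB32). Over all genes tested in input 6165 of 8401 did not pass, whatever their RNA-seq call. A share for all genes lower in RNA-seq is not given here. The 2 assays differ in their RNA, total depleted of rRNA against poly(A), and in what was counted, whole exons against peaks, and the part of each in these differences was not tested.

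**Figure D4:**
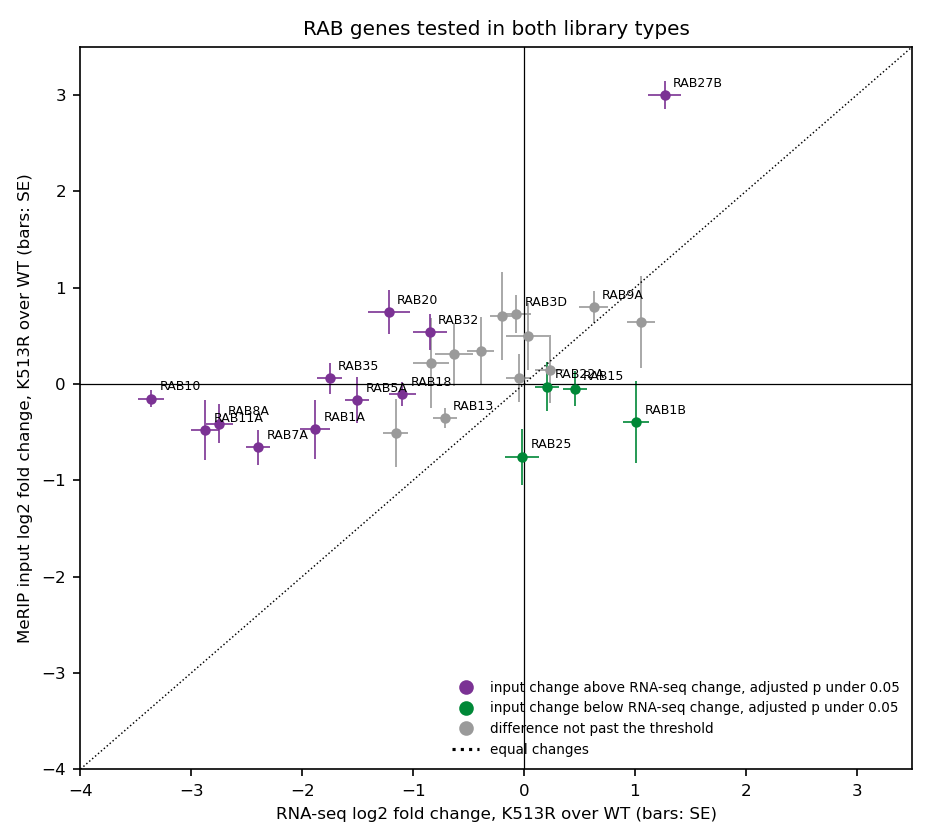
Log2 fold change, K513R over WT, in RNA-seq (horizontal) and in MeRIP input (vertical) of the 27 RAB genes tested in both, with SE bars. Colours give the joint test of the difference, and the dotted line marks equal changes in the 2 separate fits. The joint differences lie 0.48 (median over genes) under plain subtraction, so a colour does not test distance from the line. RAB10, RAB8A and RAB11A lie far left with input changes of -0.15, -0.41 and -0.48, and RAB27B lies at the top.

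Some m6A peaks of the RAB genes changed, and not all in the same direction. Peaks stood over exons of 46 members, 45 of them coding, and 18 coding members had none; 79 of the 129 peaks came from the WT list and 50 from the K513R list. After the filter on low counts 77 peaks in 33 genes were tested for a change of IP over input. Of these 11 were higher and 6 lower in K513R (22.6% of 27252 peaks were called, 13% higher and 9.61% lower). Overlapping peaks merged, these were 7 higher regions in RAB13, RAB1A, RAB1B, RAB8B, RAB10 and RAB11A and 5 lower regions in RAB26, RAB27B, RAB3D, RAB18 and RAB32.

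With library size as the only scaling the split was 2 higher and 7 lower. All peaks shifted the same way, from 3543 higher and 2620 lower to 1813 higher and 3928 lower. No peak kept its call in every alternative: without WT replicate 1 none was called, without WT replicate 2 there was 1, without WT replicate 3 there were 3 and without K513R replicate 2 there were 4. Over all peaks those same omissions left 2048, 2355, 2143 and 3269 calls of 6163.

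The levels below are log2 IP over input, scaled to peaks of each library, so that a negative value means weaker enrichment than is typical of peaks. The largest rise was at the first exon of RAB13 (chr1:153986208-153986358), at -1.48, -1.20 and -2.05 in WT and 0.09, 0.35 and -0.47 in K513R. Its log2 change was 2.18 ± 0.71 (edgeR adjusted p = 0.031) on 54 and 22 input counts. The other 4 RAB13 peaks overlap one another in the last exon (chr1:153981795-153982545) and changed by 0.57 to 1.01. At the first exon of RAB1B (chr11:66268589-66268680) the values were -0.41, -0.51 and -0.32 in WT and 0.60, 0.92 and 3.2 in K513R, a log2 change of 1.86 ± 0.53 (edgeR adjusted p = 0.016). K513R replicate 3 stands well above the other two there. RAB1A also rose at its first exon (chr2:65129972-65130212), by 1.07 ± 0.38.

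The remaining higher regions are long spans: RAB11A (chr15:65859732-65869556; 1.41 ± 0.40, and 2.25 without K513R replicate 1), RAB8B (chr15:63189559-63223896; 1.01 ± 0.35) and RAB10 (chr2:26098710-26127262; 0.61 ± 0.17). Of these spans only 0.786% to 1.23% lies in the gene's merged exons.

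The largest loss was in the last exon of RAB26 (chr16:2153570-2153839), at 1.21, 1.90 and 0.80 in WT and -0.49, -0.79 and -0.15 in K513R. Its log2 change was -1.96 ± 0.57 (edgeR adjusted p = 0.019), no library overlapping the other genotype. The authors' deposited table gives this peak a log2 difference of -2.22. In the last exon of RAB3D (chr19:11324691-11325348) enrichment went from 0.74, 0.63 and 0.84 to -0.01, -0.49 and -0.26 (log2 change -1.07 ± 0.36, edgeR adjusted p = 0.037).

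The RAB27B region (chr18:54888005-54889560) fell from 1.23, 1.48 and 0.44 to 0.27, -0.48 and 0.12 (log2 change -1.08 ± 0.28, edgeR adjusted p = 0.0094). Its summed IP counts were 490 in WT and 992 in K513R and its summed input counts 102 and 520, so both rose and input rose more. RAB18 (-0.98) and RAB32 (-0.96) were lower over spans of 4239 and 5071 bases.

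By position, 5 of the 18 first-exon peaks tested were higher and 0 lower (27.8% higher), close to first-exon peaks of all genes, of which 29.0% were higher and 3.2% lower. Of 39 last-exon peaks 4 were higher, all in RAB13, and 2 lower; over all genes 3.08% were higher and 12.1% lower. Of 19 in internal exons 2 were higher and 4 lower, against 15.5% and 9.47% over all genes. Peaks touching the first exon but not the last were classed as first-exon. Those that begin later but before the last exon were classed as internal, even where they run into the last exon. The first-exon rises include overlapping long RAB8B spans from both peak lists. The median log2 change was 0.91 at first exons, -0.30 in internal exons and -0.41 in last exons, beside 0.67, 0.02 and -0.33 over all genes.

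The 3 genes with the strongest tested peak in WT did not change past the threshold. They were RAB30 (last exon, chr11:82981968-82982388; mean log2 IP over input 1.96 ± 0.437 in WT and 1.15 ± 1.01 in K513R, SD, n = 3), RAB20 (last exon, chr13:110523508-110523804; 1.85 ± 0.123 and 1.25 ± 0.290) and RAB40C (last exon, chr16:628731-629241; 1.81 ± 0.299 and 1.59 ± 0.837). RAB7A, 5.27-fold lower in RNA-seq, had a peak in internal exons (chr3:128813351-128813650) at 0.79, 1.00 and 1.05 in WT and 1.33, 1.33 and 1.26 in K513R, a change of 0.34 ± 0.34 that did not pass; it was named after its values were seen.

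**Figure D5:**
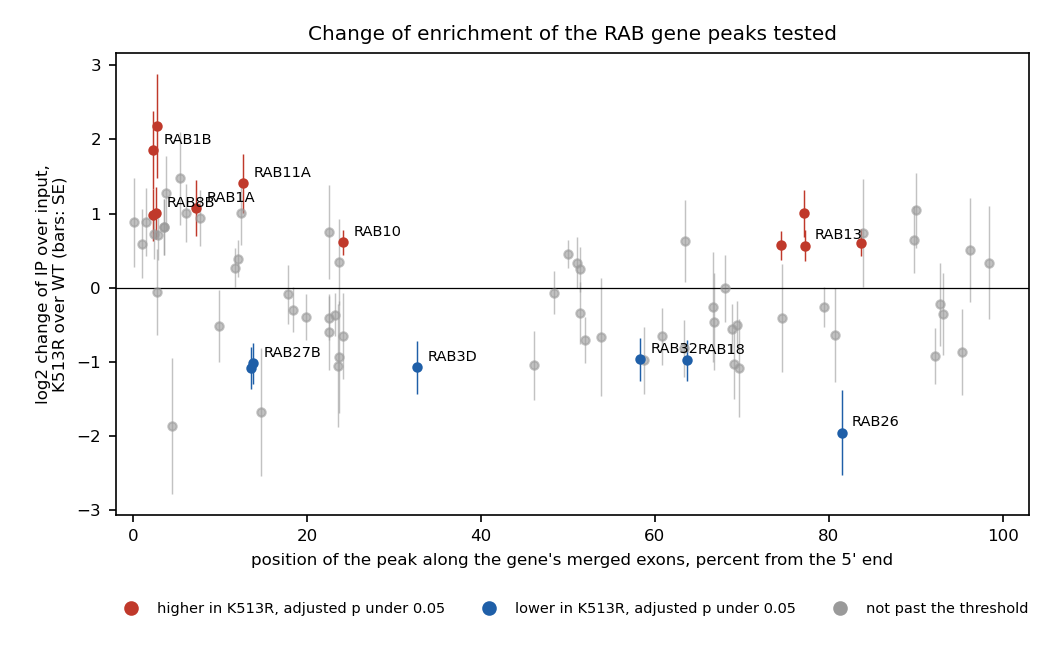
Log2 change of IP over input, K513R over WT, of the 77 RAB gene peaks tested against the position of the peak along the gene's merged exons in percent from the 5′ end; bars are SE and colours the call at an adjusted p of 0.05. Higher peaks lie in the first 24.2% of the exons except those in the last exon of RAB13, and lower peaks lie between 13.6% (RAB27B) and 81.5% (RAB26, at -1.96).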

How the data were processed

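Members and lists were chosen with earlier results of these data known. The authors deposited whole-number read counts per gene for RNA-seq and per m6A peak for MeRIP input and IP, with each peak's fold enrichment and a score that repeats it, a log2 difference between genotypes and p-values and FDR values, per the file headers. The submitters' processing notes name the build GRCh38 and Trimmomatic 0.36, featureCounts of Subread 1.5.1, bedtools, deepTools and edgeR 3.12.1, without their settings. Neither an aligner nor a peak caller is given in the sources used here.

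From the deposited counts, CPM with TMM factors and edgeR 4.0.16 quasi-likelihood tests (R 4.3.3; robust, genes or peaks kept by filterByExpr) were computed over the whole tables, with Benjamini-Hochberg adjustment and a threshold of 0.05. RNA-seq used 6 libraries. Peaks were tested by the interaction of IP and genotype over 12 libraries, scaled within IP and within input. Input counts were summed per gene over non-overlapping peaks, and an assay by genotype term compared input with RNA-seq. Log2 IP over input used CPM + 0.5. DESeq2 1.42.0, other scalings, filters, peak sets, a replicate block and omission of each replicate were alternatives. The fits were tested on simulated data first. There the peak test recovered 27.7% of log2 changes of 1 and 82.5% of log2 changes of 2. A peak that did not pass may therefore still have changed. Only 65 of 26525 simulated peaks had a log2 change of 1 and 63 a change of 2, while 22.6% of the real peaks were called. The recovery in the real data may differ from these shares. Genes named by rule were, per role group, the highest mean CPM and the largest rise and fall (mean of at least 1 CPM), the 3 strongest WT peaks, all peaks called, and the largest rise and fall of each regulator list; other genes were named after their values were seen. A result on 1 regulator gene is not reported here.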

Additional observations from a re-analysis of the deposited data

Results flagged for a closer look

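The change of RNA level differed between RNA-seq and MeRIP input in 15 of 27 RAB genes, by the assay by genotype term of the edgeR model. Over all genes tested in both, 63.7% of 8325 passed that term. Its differences lie 0.48 (median over genes) under plain subtraction. RAB20 (difference 1.48 on the log2 scale) and RAB32 (0.90) passed in opposite directions, lower in RNA-seq and higher in input. The only RAB32 peak spans chr6:146549617-146554687, while the gene has 1065 exonic bases, so most of the span lies outside its exons. The part of this in the RAB32 input value was not tested. RAB32 lost the call of the difference without replicate 2 (0.64). Its input call was lost with DESeq2 (0.54), with the replicate block (0.54), with no low-count filter (0.52), without first-exon peaks (0.51, added after seeing the data) and in 4 of 6 omissions of a replicate. The input call of RAB20 was lost in 4 of 6 omissions (0.61 to 0.77). Poly(A) selection and counting within peaks separate the 2 assays, and their part was not tested.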

How the results depend on the processing

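Of 54 RNA-seq calls given by gene, 45 held in every alternative run and 9 were lost in at least 1; for the assay differences 10 of 15 held, for input 1 of 7 and for peaks 0 of 17. The median RNA-seq log2 fold change of the RAB genes, and RAB21 as its middle gene, was 0.013 with upper-quartile factors; the median was -0.33 with library size alone, -0.067 without 7SL, 7SK and mitochondrial genes and with library size alone, -0.13 with no low-count filter, and -0.29 to -0.18 with each replicate left out. RAB5B turned to -0.046 with library size alone and -0.037 with no filter, and ran from -0.072 to 0.079 with each replicate left out. RAB8B turned to 0.21 with upper-quartile factors, 0.13 without 7SL, 7SK and mitochondrial genes and with library size alone, and 0.077 with a mean of at least 1 CPM. Without genes that share at least 10% of their exons, fewer genes were tested and 10 RAB genes were higher. Input calls ran from 3 to 10 with each replicate left out, and over all genes 16.5% to 32.5% were then called. Peak calls were 9 with library size alone (2 higher), 6 at or above the median score (4 higher, 2 lower), 9 with at least 50% of the peak in exons (7 higher, 2 lower) and 9 with peaks of at most 1000 bases (7 higher, 2 lower), the last added after seeing the data; fewer peaks were tested in the last 3. With each replicate left out they ran from 0 to 23, 0 to 14 of them higher and 0 to 9 lower. Over all peaks 21.1% were called with library size alone and 13.1% at or above the median score. With each replicate left out 7.27% to 26.5% of all peaks were called. Other causes were not tested.

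With the replicate number as a block, 45 of 61 RAB genes were called in RNA-seq, 6 of 27 in input and 15 of 27 in the assay difference. So were 20 of 77 peaks and 133 of 159 regulators. Over all features the block called 77.1% of genes in RNA-seq, 22.9% in input, 62.4% of assay differences and 29.6% of peaks. Deviations of same-numbered RNA-seq libraries of the 2 genotypes correlated at -0.16, 0.39 and 0.10 and those of inputs at -0.15, -0.07 and 0.02. With 3 libraries a genotype these values can neither show nor exclude a shared batch, and the labels give only the number. Same-numbered input and IP libraries correlated at 0.093 to 0.39 in 6 of 6 pairs, and 5 of 6 inputs correlated best with the IP of their own number, but not every pair passed 0.1; this is a hint from the data, and the peak calls were 17 without and 20 with that block. Several called peaks rest on few summed input counts a genotype, such as 26 and 27 at RAB26.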
